A study of Mus musculus with 20 samples.

Results

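Oxidative phosphorylation is carried out by 5 protein complexes of the inner mitochondrial membrane. Nuclear genes named for their subunits were followed here after knockdown of *Rnaseh2c*, which encodes a subunit of the RNase H2 enzyme. Members were chosen by gene symbol alone, as genes whose symbols begin with Nduf and a subunit letter and number (complex I), Sdha to Sdhd (complex II), Uqcr (complex III), Cox4 to Cox8 followed by a, b or c (complex IV) or Atp5 (complex V). This gave 82 of 20188 genes in the tumor table and 83 of 50667 Ensembl genes in the cell table, the same 82 symbols in both, since 2 overlapping gene models on the same strand both carry the symbol *Ndufb8*. By complex the 82 tumor genes divided into 37, 4, 8, 16 and 17. The letters of the rule pass over *Cyc1*, *Cox4i1* and *Ndufab1*, which are treated below with other genes of the pathway, and 2 further matches in the cell table were left out, *Atp5l2* as an annotated pseudogene and *Atp5l-ps1* for its pseudogene symbol, although the annotation lists it as protein-coding.

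Complexes I and II pass electrons from NADH and succinate to ubiquinone, complex III hands them on to cytochrome c, and complex IV delivers them to oxygen. Complexes I, III and IV pump protons as they do so, and complex V, the ATP synthase, lets the protons back through its membrane ring to make ATP. Complex II is encoded wholly in the nucleus, whereas the other complexes also contain subunits encoded in mitochondrial DNA, and several complex IV subunits exist in alternative forms that are typical of heart and skeletal muscle, brown fat, lung or testis.

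The sh4 group carried the shRNA named sh4 against *Rnaseh2c* and the scramble group (scr) a control shRNA, both delivered by lentivirus to Mvt1, a mouse mammary carcinoma line of FVB background. Primary tumors came from FVB/nJ females bought at about 6 weeks of age and injected in the mammary fat pad, and the labels place them at 30 days after implantation, with 3 sh4 and 3 scramble tumors, 1 of each from each of 3 experiments. The cell comparison had 3 plates of sh4 cells and 3 plates of scramble cells. Each group rests on 1 shRNA line, so the knockdown and any other difference between the lines cannot be told apart, and the design calls the plates biological replicates without saying how they were separated, so p-values in cells measure the spread between these plates, which may be partly technical. In bulk tumors, fewer cells of a type and less RNA per cell cannot be told apart.

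*Rnaseh2c* itself was at 10.2, 22.4 and 19.8 RPKM in sh4 tumors and 26.9, 52.0 and 25.9 RPKM in scramble tumors, with no overlap. In cells it was at 3.19, 5.36 and 4.28 FPKM with sh4 and 5.83, 7.06 and 5.34 FPKM with scramble, where the highest sh4 plate lay just above the lowest scramble plate. Of 6 epithelial markers all 6 were measured in tumors, with *Krt8* between 248 and 401 RPKM in sh4 and 347 and 691 RPKM in scramble tumors. In cells 3 of the 6 passed a minimum mean of 0.1 FPKM, among them *Krt18*, at 165 to 186 FPKM with sh4 and 167 to 217 FPKM with scramble. The other markers of the list lay under this minimum in cells, so *Krt18* does not stand for the whole list, and the reason was not tested. Scramble tumor 2 stood apart, with all 8 fat cell markers at their highest there, and so did scramble plate 1, in which 56 of 79 tested members had their lowest value.

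The 3 genes for subunit c, the ATP synthase subunit that forms the proton-carrying ring, encode the same mature protein. Their promoters are shown because their fold changes in the cells differed in direction, as described below, though none of the 3 passed an adjusted p under 0.05. Each stretch is the 250 bases just before the RefSeq transcription start on GRCm38.p6, read 5′ to 3′ in the direction of the gene. Capitals and labels cover only matches to a searched motif that lie wholly within the stretch.
Atp5g1, chr11:96075632-96075881, minus strand, no match: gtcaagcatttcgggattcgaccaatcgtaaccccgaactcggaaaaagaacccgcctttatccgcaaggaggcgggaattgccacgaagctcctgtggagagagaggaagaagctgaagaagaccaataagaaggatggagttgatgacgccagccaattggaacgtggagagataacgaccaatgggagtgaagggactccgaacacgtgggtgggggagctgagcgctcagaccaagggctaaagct
Atp5g2, chr15:102671048-102671297, minus strand, with overlapping matches to NRF1 letters: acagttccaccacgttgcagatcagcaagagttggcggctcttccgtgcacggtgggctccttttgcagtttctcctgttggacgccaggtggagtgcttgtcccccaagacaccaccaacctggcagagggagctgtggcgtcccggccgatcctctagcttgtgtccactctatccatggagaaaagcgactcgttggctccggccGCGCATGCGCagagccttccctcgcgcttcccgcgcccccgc
Atp5g3, chr2:73911327-73911576, minus strand, with a match to ERR letters on the opposite strand: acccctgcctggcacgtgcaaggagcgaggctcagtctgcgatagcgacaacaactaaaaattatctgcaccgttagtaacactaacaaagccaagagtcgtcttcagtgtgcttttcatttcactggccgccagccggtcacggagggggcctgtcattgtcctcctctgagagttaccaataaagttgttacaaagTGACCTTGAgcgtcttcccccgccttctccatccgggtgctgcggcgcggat
The motifs were short letter strings searched on both strands over 300 bases, from 250 before the start to 50 after it, and they stand for factors known to act on nuclear genes of mitochondria. RefSeq promoter entries were found for 66 of the 82 symbols, with 71 entries among 32851 in all. The ETS/GABP string CCGGAAG was present in 16 of the 71 member promoters (22.5%), against 8.86% of all promoters. The NRF1 string GCGCATGCG was in 8 (11.3%, against 1.75%), the YY1 string AAGATGGCG in 7 (9.86%, against 1.4%), and the ERR string TCAAGGTCA in 2 (2.82%, against 0.423%). The SP1 string GGGCGG was in 27 (38.0%), close to its share of all promoters (35.7%). The SP1 match of *Atp5g2*, at position -4, runs past the end of the stretch shown and is not marked there. Of the 71 entries, 25 held none of the 5 strings, which says only that these letters are missing from these windows.

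In tumors, no member passed an adjusted p under 0.05, and the groups overlapped for 73 of the 80 tested. With log2(RPKM + 0.5) values compared by limma, 80 of 82 members passed a minimum mean of 0.1 RPKM, and 0 of these 80 were called, where 0 of 13487 genes (0.0%) were called over the whole table. At an unadjusted p under 0.05, 0 members were higher in sh4 tumors, against 2.16% of all genes, and 4 were lower, against 2.02%. The count of 4 was 9 without sh4 tumor 1 (with 2 higher), where 10.2% of all genes were lower and 4.9% higher. It was 1 without sh4 tumor 2 or 3 or scramble tumor 1 or 3, against 0.786% to 1.59% of all genes. Without scramble tumor 2, with quantile normalization or with median-ratio scaling it was 0, against 1.62% to 2.11%. The 3 sh4 values exceeded every scramble value for 0 members, against 4.19% of all genes, and were under every scramble value for 7, against 4.98%. The median log2 fold change over the members was -0.045, next to -0.043 over all genes tested, and fold changes on this scale understate differences of genes with low values. The median lay within the spread between tumors and was 0.06 without sh4 tumor 1, -0.13 without sh4 tumor 2 and 0.049 without scramble tumor 2, so its sign turned with the library left out. Positive values were found for 34 members and negative values for 46, where 57.4% of all genes tested were negative. After median-ratio scaling the member split was 43 to 37. The 95% confidence interval of the log2 fold change lay within 1 of no difference, either way, for 65 members, and within 0.5 for 9. In simulated tumor data 16.4% of genes with a log2 change of 1 and 63.6% with a log2 change of 2 were called. A difference of 2-fold or less in a single member would thus mostly have been missed. The simulation drew the noise of each gene independently, so deviations that genes of a library share were not part of it.

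The members differed from tumor to tumor within both groups. The median deviation of the 80 members from their own mean over the 6 tumors was -0.26, 0.16 and 0.011 on the log2 scale in sh4 tumors 1 to 3, and -0.063, 0.32 and -0.15 in scramble tumors 1 to 3. The lowest value of 42 members fell in sh4 tumor 1, and the highest value of 39 members in scramble tumor 2 and of 26 members in sh4 tumor 2. A length index, the median deviation of short genes (exon length under 1000 bases) minus that of long genes (over 4000 bases) with the members left out, was -0.30, 0.36 and 0.064 in sh4 tumors and -0.18, 0.23 and -0.28 in scramble tumors. The members are short, with a median exon length of 1265 bases, against 3530 bases over the genes tested, and their medians were below 0 in the tumors with a negative index and above 0 in the rest, though the part of the length index in these values was not tested. Together the members held 2.46% to 2.94% of summed RPKM in sh4 tumors and 2.50% to 3.19% in scramble tumors.

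**Figure D1:**
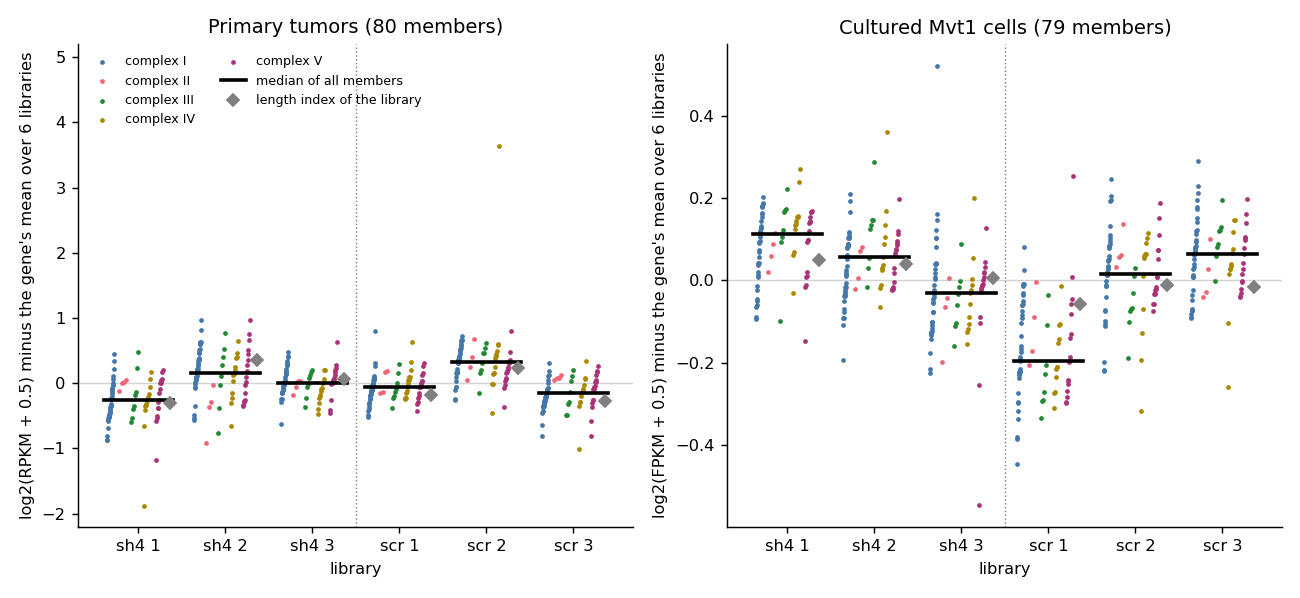
Deviation of each member from its own mean over the 6 libraries, on the scale of log2(RPKM + 0.5) for tumors (left, 80 members) and log2(FPKM + 0.5) for cells (right, 79 members), with 1 point per gene colored by complex, a black line for the median of all members and a gray diamond for the length index of the library. The vertical scales differ: tumor medians run from -0.26 in sh4 tumor 1 to 0.32 in scramble tumor 2, and in cells scramble plate 1 has the lowest median, at -0.20.

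Some members followed this pattern with steep differences between tumors of 1 group. *Atp5e*, the epsilon subunit of the ATP synthase, was at 156, 691 and 545 RPKM in sh4 tumors and 263, 616 and 201 RPKM in scramble tumors, so that both the lowest and the highest value were from sh4 tumors, 4.44-fold apart (log2 fold change 0.28, SE 0.61). Other subunits ran the other way, such as *Uqcrc2*, a core protein of complex III, with 70.5, 29.4 and 38.9 RPKM in sh4 tumors and 61.8, 55.9 and 58.4 RPKM in scramble tumors (log2 fold change -0.43, SE 0.30). Over all 80 tested members, 28 had a highest tumor more than 2-fold above the lowest, and at mean levels from 10 RPKM upward this held for 31.5% of 73 members and 28.5% of 4306 genes.

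Within the experiments, sh4 against scramble gave a member median of -0.16 in experiment 1, -0.11 in experiment 2 and 0.14 in experiment 3, beside 0.049, -0.080 and -0.090 over all genes tested. In experiment 1 the sh4 value was lower for 62 of 80 members, in experiment 2 for 47, and in experiment 3 for 32. The direction thus differed between experiments, and fitting the experiment number as a block also called 0 members. With that block 4 members were lower at an unadjusted p under 0.05, against 3.69% of all genes, and 0 were higher, against 3.06%. The limma values given for single genes in tumors are from the fit without the block.

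Complex I, the largest complex, had 16 members with positive and 21 with negative fold changes in tumors and a median of -0.016. *Ndufb4*, an accessory subunit of the membrane arm, was at 115, 60.3 and 54.6 RPKM in sh4 tumors and 105, 87.1 and 105 RPKM in scramble tumors (log2 fold change -0.45, SE 0.29), where sh4 tumor 1 was the highest of the 6. The most abundant gene of the group was *Ndufa4*, with 295, 364 and 236 RPKM in sh4 tumors and 338, 236 and 242 RPKM in scramble tumors, and both groups covered the same range. The protein it encodes, first assigned to complex I, has since been placed in complex IV.

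Complex II, succinate dehydrogenase, had the lowest median of the 5 complexes in tumors, -0.27 over 4 genes, with 1 at an unadjusted p under 0.05. *Sdhc*, which anchors the enzyme in the membrane, was at 26.8, 15.3 and 29.9 RPKM in sh4 tumors and 33.3, 46.8 and 31.6 RPKM in scramble tumors. All sh4 values were lower (log2 fold change -0.66, SE 0.28, adjusted p = 0.995 from limma), and sh4 tumor 2 and scramble tumor 2 were the extremes. Leaving out sh4 tumor 2 gave -0.37 on the log2 scale. The second anchor, *Sdhd*, was at 122, 91.7 and 104 RPKM in sh4 tumors and 132, 139 and 125 RPKM in scramble tumors (log2 fold change -0.33, SE 0.17), again without overlap. *Sdhb*, the iron-sulfur subunit, was at 72.4, 58.7 and 68.7 RPKM with sh4 and 65.4, 95.2 and 73.8 RPKM with scramble (log2 fold change -0.22, SE 0.19, and -0.066 without scramble tumor 2). *Sdha*, the flavoprotein, was at 43.6, 42.8 and 44.8 RPKM in sh4 tumors and 39.4, 45.3 and 45.9 RPKM in scramble tumors. The complex median in the experiments was 0.017, -0.65 and -0.091, so most of the difference lay in experiment 2. In cells the same 4 genes ranged from -0.044 to 0.096.

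The 8 complex III genes had 4 positive and 4 negative values in tumors. *Uqcrfs1*, the Rieske iron-sulfur protein, was at 33.5, 28.2 and 35.7 RPKM in sh4 tumors and 41.2, 46.2 and 39.9 RPKM in scramble tumors. It was lower in every sh4 tumor than in any scramble tumor, with a log2 fold change of -0.39 (SE 0.16, adjusted p = 0.995 from limma). *Uqcrh*, the hinge protein and the most abundant of the 8 genes, was at 565, 848 and 679 RPKM in sh4 tumors and 547, 734 and 526 RPKM in scramble tumors (log2 fold change 0.21, SE 0.23), with overlap.

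Complex V members were split, 10 positive and 7 negative, with a median of 0.038. *Atp5g2* had the smallest p of the group, with 287, 228 and 202 RPKM in sh4 tumors and 333, 323 and 316 RPKM in scramble tumors. The scramble tumors were close together and all above the sh4 tumors (log2 fold change -0.45, SE 0.18, adjusted p = 0.995 from limma). *Atp5j*, which encodes coupling factor F6, was at 148, 122 and 122 RPKM with sh4 and 180, 164 and 148 RPKM with scramble (log2 fold change -0.33, SE 0.17). The sh4 tumors were all below the scramble tumors, with sh4 tumor 1 and scramble tumor 3 nearly equal. An exon of *Atp5j* overlaps one of *Gabpa* on the other strand, the gene for a subunit of the GABP factor named above, and since the strand setting of the libraries is not given in the sources used here, their reads may be shared. *Gabpa* was at 12.8, 3.66 and 6.76 RPKM in sh4 tumors and 12.2, 8.63 and 11.5 RPKM in scramble tumors (log2 fold change -0.60, SE 0.40), so the groups overlapped. The most abundant complex V gene, *Atp5l*, the g subunit, was at 383, 706 and 524 RPKM in sh4 tumors and 501, 528 and 405 RPKM in scramble tumors.

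**Figure D2:**
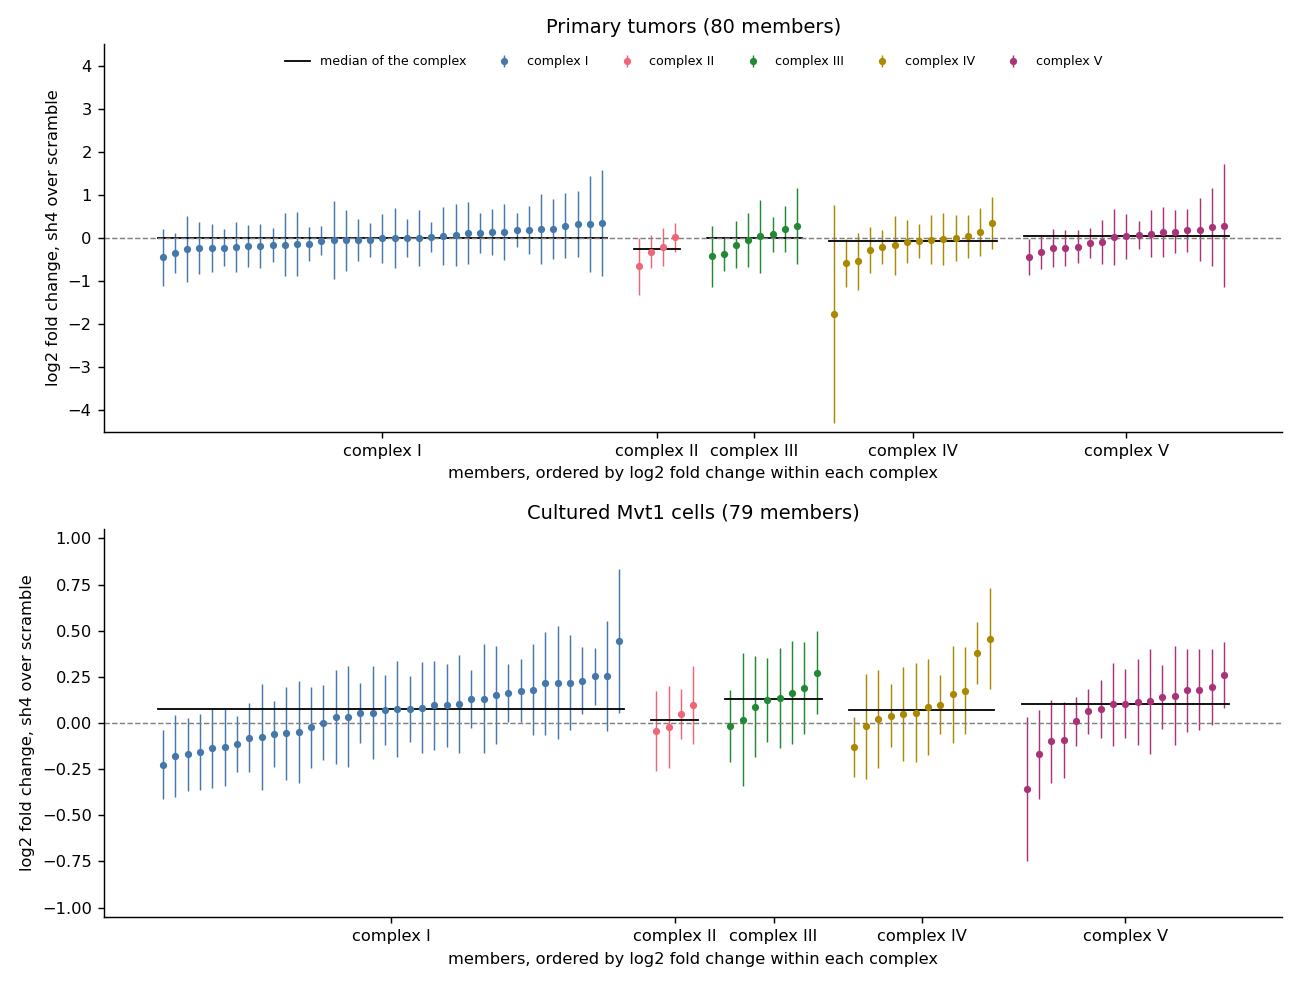
Log2 fold change of sh4 over scramble for each member with its 95% confidence interval (limma), in tumors (top, 80 members) and cells (bottom, 79 members), ordered within each complex, with a black line at the median of each complex. In tumors the medians of complexes I to V are -0.016, -0.27, -0.0085, -0.079 and 0.038 and most intervals cross 0, and in cells, on a narrower vertical scale, they are 0.073, 0.014, 0.13, 0.071 and 0.11.

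Complex IV holds most of the alternative forms, and 3 of its 14 tested members were positive and 11 negative in tumors, with a median of -0.079. *Cox8a*, the common form of subunit 8, was at 257, 145 and 174 RPKM in sh4 tumors and 245, 313 and 290 RPKM in scramble tumors (log2 fold change -0.59, SE 0.24, adjusted p = 0.995 from limma). Here sh4 tumor 1 overlapped scramble tumor 1, and the remaining sh4 tumors were lowest. *Cox8b*, the form found in muscle and brown fat, was at 0.520, 2.54 and 2.21 RPKM in sh4 tumors and 3.38, 46.2 and 1.36 RPKM in scramble tumors, an 89.0-fold range. Its log2 fold change of -1.78 (SE 1.09) rested on scramble tumor 2 and was -0.40 without it.

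The fat marker *Fabp4* was at 190, 57.1 and 31.7 RPKM in sh4 tumors and 21.4, 1514 and 163 RPKM in scramble tumors, with scramble tumor 2 far above the rest. The summed level of the 8 fat cell markers ran from 35.4 to 229 RPKM in sh4 tumors and from 24.2 to 1675 RPKM in scramble tumors, and none of the 8 was at 0 throughout. *Cidea*, a marker of brown fat, was at 0, 0.145 and 0.041 RPKM in sh4 tumors and 0, 3.85 and 0 RPKM in scramble tumors. *Ucp1*, the uncoupling protein of brown fat, was at most 0.278 RPKM in sh4 tumors and 1.16 RPKM in scramble tumors, again in tumor 2, which also held the highest value of all 3 measured erythrocyte markers. Their part in the *Cox8b* value was not tested.

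*Cox7a1*, the heart and muscle form of subunit 7a, was at 1.72, 3.32 and 2.34 RPKM in sh4 tumors and 3.87, 4.80 and 2.77 RPKM in scramble tumors (log2 fold change -0.55, SE 0.29). Relative to the common form *Cox7a2* in the same tumor this was 0.948%, 1.16% and 1.14% with sh4 and 1.78%, 1.98% and 1.46% with scramble, without overlap. *Cox6a2*, another muscle form, was at 1.61, 2.05 and 1.85 RPKM in sh4 tumors and 3.35, 1.30 and 2.13 RPKM in scramble tumors. Scramble tumor 1, where it was highest, also held the highest value of 10 of 12 striated muscle markers, whose sum ran from 17.0 to 81.8 RPKM in sh4 tumors and from 16.5 to 155 RPKM in scramble tumors, with none at 0 throughout, and the part of muscle in these values was not tested. *Cox6b2*, a testis form, lay between 0.641 and 1.51 RPKM in all tumors, *Cox8c* was listed at 0 in every tumor, and *Cox7b2* was listed above 0 in sh4 tumor 2 alone, at 0.047 RPKM.

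**Figure D3:**
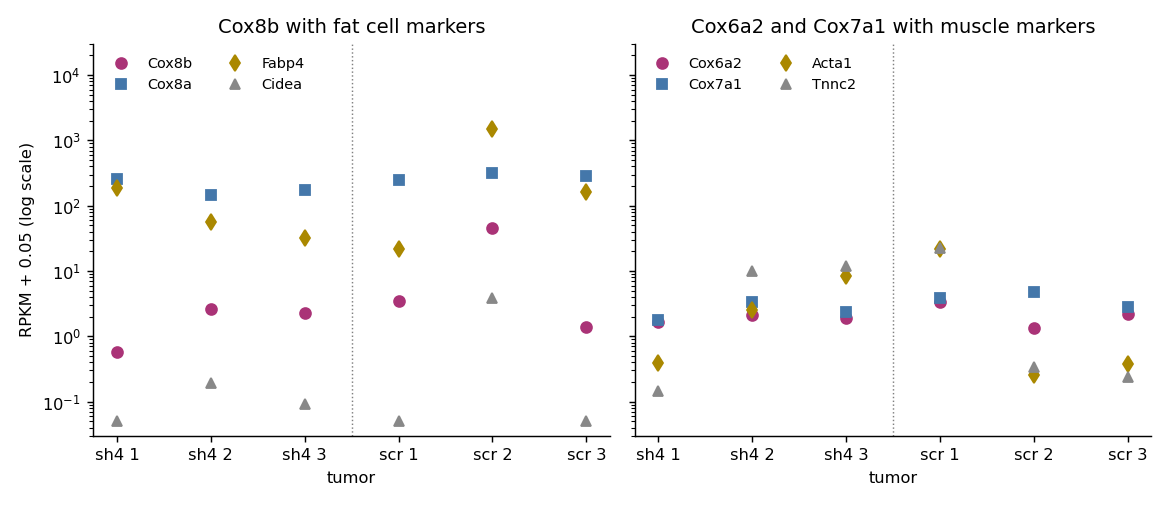
RPKM + 0.05 on a log scale in each tumor, for *Cox8b* and *Cox8a* with the fat cell markers *Fabp4* and *Cidea* (left) and for the muscle forms *Cox6a2* and *Cox7a1* with the striated muscle markers *Acta1* and *Tnnc2* (right). *Cox8b* reaches 46.2 RPKM in scramble tumor 2, where *Fabp4* reaches 1514 RPKM, and lies between 0.520 and 3.38 RPKM in the other 5 tumors.

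*Cox7a2l*, which is required for joining complexes III and IV into supercomplexes, was at 256, 506 and 370 RPKM in sh4 tumors and 275, 320 and 264 RPKM in scramble tumors (log2 fold change 0.35, SE 0.26). Set against *Cox7a2* in the same tumor, the ratio was 1.41, 1.77 and 1.80 with sh4 and 1.26, 1.32 and 1.40 with scramble (p = 0.1 by exact permutation, two-sided, which is the lowest possible with 3 tumors a group, adjusted p = 0.3 over 3 ratios). The sh4 ratios were all higher, sh4 tumor 1 by a small margin. The ratio was also higher with sh4 in 3 of 3 experiments, where exact permutation within experiments gave p = 0.25, the lowest that 3 pairs allow. No such order was seen in cells, where the ratio was 2.44, 2.68 and 2.53 with sh4 and 2.84, 2.50 and 2.57 with scramble.

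*Cox4i2*, a lung and hypoxia form of subunit 4 outside the symbol rule, was at 1.11, 1.36 and 1.81 RPKM in sh4 tumors and 0.723, 0.936 and 0.843 RPKM in scramble tumors (log2 fold change 0.52, SE 0.20, adjusted p = 0.995 from limma). In cells it lay under the minimum mean, at 0.0049, 0.0057 and 0.014 FPKM with sh4 and 0.089, 0.043 and 0.076 FPKM with scramble. The order of the groups was thus opposite in tumors and cells, at levels under 0.5% of *Cox4i1* in every library, and the difference between tumors and cells was not tested.

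In cells, the members varied much less between libraries, and none passed an adjusted p under 0.05 either. Together they held 0.238% to 0.275% of the summed FPKM of Ensembl genes, against 2.46% to 3.19% of summed RPKM in tumors. Rows of assembled loci, 46.2% to 52.6% of summed FPKM in cells, were left out. Whether reads of members lie in those loci was not tested, so the cell values may be partial. Of 83 rows, 79 passed the minimum mean of 0.1 FPKM and 0 were called, against 270 of 21106 genes (1.28%). At an unadjusted p under 0.05, 9 were higher in sh4 cells, against 9.55% of all genes, and 1 was lower, against 9.33%. All sh4 plates were above all scramble plates for 11 members, against 13.6% of all genes, and below for 4, against 13.8%. The count of lower members rested on scramble plate 1, and without it 10 were lower at an unadjusted p under 0.05, against 12.3% of all genes, and 6 were higher, against 8.48%. The median log2 fold change of the members was 0.084, beside -0.0022 over all genes. The members had 57 positive and 22 negative values, where 49.6% of all genes tested were positive. Without scramble plate 1 the median was 0.011 and the split 43 to 36, and after quantile normalization the split was 46 to 33. All 79 intervals lay within 1 of no difference and 73 lay within 0.5, on the log2 scale.

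The median deviation of the members was 0.11, 0.056 and -0.031 in sh4 plates 1 to 3 and -0.20, 0.015 and 0.065 in scramble plates 1 to 3, so that scramble plate 1 stood below the rest. Summed FPKM was 1577673 to 1613060 in sh4 plates and 1353482, 1666110 and 1690655 in scramble plates, with the same plate lowest. The length index did not overlap between the groups in cells, with 0.049, 0.040 and 0.0058 in sh4 plates and -0.057, -0.010 and -0.017 in scramble plates, so it and the shRNA cannot be told apart there. With the index as a covariate the member median was -0.18, beside -0.063 over all genes tested. At an unadjusted p under 0.05, 21 members were then lower, against 12.7% of all genes, and 1 was higher, against 4.3%.

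*Cox5a*, a nuclear subunit of complex IV that lies next to its catalytic core, had the smallest p of all members in cells. It was at 3.27, 3.01 and 3.17 FPKM in sh4 cells and 2.15, 2.30 and 2.47 FPKM in scramble cells, so the groups were clearly apart. The log2 fold change was 0.38 (SE 0.070) with an adjusted p of 0.066 from limma, which ranged from 0.023 to 0.30 over the alternatives and was under 0.05 with a minimum mean of 1 FPKM, quantile normalization or median-ratio scaling. Its gene, on chromosome 9 from 57369039 to 57380231 on NCBIM37, overlaps a noncoding RNA on the other strand, and in tumors *Cox5a* was at 74.5, 130 and 113 RPKM with sh4 and 94.4, 110 and 80.6 RPKM with scramble.

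*Ndufb5* and *Ndufs6*, accessory subunits of the membrane arm and of the matrix arm of complex I, were next among its 38 rows. *Ndufb5* was at 4.36, 4.29 and 4.43 FPKM in sh4 cells and 3.32, 3.62 and 3.81 FPKM in scramble cells (log2 fold change 0.25, SE 0.064, adjusted p = 0.119 from limma). *Ndufs6* was at 9.83, 11.3 and 10.7 FPKM in sh4 cells and 9.39, 8.29 and 9.24 FPKM in scramble cells (log2 fold change 0.23, SE 0.076). Neither gene overlapped between the groups, and exons of *Ndufb5* and *Mrpl47* overlap on opposite strands. *Ndufv3*, an accessory subunit of the flavoprotein part and the sole member lower at an unadjusted p under 0.05, was at 6.82, 6.11 and 6.53 FPKM with sh4 and 7.18, 8.45 and 7.43 FPKM with scramble (log2 fold change -0.23, SE 0.078).

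Another complex I gene higher at an unadjusted p under 0.05, *Ndufb6*, an accessory subunit of the membrane arm that overlaps an RNA on the other strand, averaged 18.0 ± 3.52 FPKM in sh4 cells and 13.05 ± 1.97 FPKM in scramble cells (SD, n = 3 each, without overlap, log2 fold change 0.45, SE 0.16). *Ndufa8* and *Ndufs4*, also of complex I, had log2 fold changes of 0.18 and 0.16, the value of *Ndufs4* being 0.11 without scramble plate 1. In complex III, *Uqcrb*, a small ubiquinone-binding subunit, was at 45.2, 44.4 and 42.6 FPKM in sh4 cells and 31.7, 38.1 and 40.0 FPKM in scramble cells (log2 fold change 0.27, SE 0.093), and without scramble plate 1, its lowest, the log2 fold change was 0.17. *Uqcr10*, the most abundant of complex III, was at 88.0, 86.5 and 76.3 FPKM with sh4 and 64.6, 74.2 and 81.4 FPKM with scramble (log2 fold change 0.19, SE 0.10, and 0.10 without scramble plate 1), with overlap.

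The 4 complex II genes had a median log2 fold change of 0.014 in cells. *Sdha* was at 23.1, 22.3 and 22.3 FPKM with sh4 and 20.8, 23.1 and 21.6 FPKM with scramble, and *Sdhc* at 18.1, 17.5 and 17.0 FPKM with sh4 and 15.8, 19.6 and 19.1 FPKM with scramble. *Sdhd* was at 146, 142 and 131 FPKM with sh4 and 117, 138 and 138 FPKM with scramble, and *Sdhb* at 4.14, 4.11 and 3.30 FPKM with sh4 and 3.85, 4.05 and 3.78 FPKM with scramble. Every one of the 4 overlapped between the groups, and none had an unadjusted p under 0.05.

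The catalytic core of complex V, the beta and alpha subunits *Atp5b* and *Atp5a1*, had positive fold changes in cells that were smaller without scramble plate 1. *Atp5b* was at 121, 115 and 110 FPKM in sh4 cells and 90.0, 103 and 109 FPKM in scramble cells (log2 fold change 0.20, SE 0.085), and *Atp5a1* at 129, 126 and 117 FPKM in sh4 cells and 96.7, 115 and 119 FPKM in scramble cells (log2 fold change 0.18, SE 0.093). The sh4 plates were all above the scramble plates for *Atp5b*, by a small margin, and overlapped them for *Atp5a1*. Without scramble plate 1 the log2 fold change was 0.12 for *Atp5b* and 0.085 for *Atp5a1*. *Atp5s*, which encodes factor B, was at 1.43, 1.41 and 0.812 FPKM with sh4 and 1.78, 1.68 and 1.55 FPKM with scramble (log2 fold change -0.36, SE 0.16, and -0.18 without sh4 plate 3).

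The fold changes of the 3 subunit c genes differed in direction in cells, though none of the 3 was called. *Atp5g3* was at 34.0, 33.4 and 33.6 FPKM in sh4 cells and 25.1, 29.2 and 30.0 FPKM in scramble cells (log2 fold change 0.26, SE 0.075, adjusted p = 0.148 from limma). *Atp5g2* was at 18.8, 18.8 and 17.7 FPKM in sh4 cells and 17.4, 20.6 and 21.4 FPKM in scramble cells (log2 fold change -0.094, SE 0.086), and *Atp5g1* at 7.88, 8.48 and 7.20 FPKM in sh4 cells and 6.12, 7.37 and 7.13 FPKM in scramble cells (log2 fold change 0.18, SE 0.091). Without scramble plate 1 the log2 fold change was -0.18 for *Atp5g2* and 0.11 for *Atp5g1*. As a share of the 3 genes together, a measure that the total of a library does not alter, *Atp5g3* made up 56.0%, 55.1% and 57.4% in sh4 cells and 51.7%, 51.1% and 51.3% in scramble cells. *Atp5g2* made up 31.0%, 31.0% and 30.3% in sh4 cells and 35.7%, 36.1% and 36.5% in scramble cells, while *Atp5g1* lay between 12.2% and 14.0% in all 6. The gap between the groups thus exceeded the spread of the plates within either group for *Atp5g3* and *Atp5g2*. On the log2 scale the ratio of *Atp5g3* to *Atp5g2* differed by 0.36 and that of *Atp5g1* to *Atp5g2* by 0.29 (p = 0.1 for each by exact permutation, two-sided, again the lowest possible, and adjusted p = 0.15 over the 3 ratios examined in cells). The ratios were not among the planned tests, and the adjustment does not cover their choice.

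In tumors, *Atp5g3* was at 120, 179 and 184 RPKM with sh4 and 149, 186 and 131 RPKM with scramble (log2 fold change 0.038, SE 0.23), and *Atp5g1* at 76.7, 84.1 and 85.8 RPKM with sh4 and 81.9, 97.3 and 89.1 RPKM with scramble (log2 fold change -0.12, SE 0.15). The share of *Atp5g2* was 59.4%, 46.5% and 42.8% in sh4 tumors and 59.0%, 53.2% and 59.0% in scramble tumors. The ratio of *Atp5g3* to *Atp5g2* differed by 0.49 on the log2 scale in the same direction as in cells, but sh4 tumor 1 lay among the scramble tumors (p = 0.3 by exact permutation, two-sided, adjusted p = 0.3), and it was higher with sh4 in 2 of 3 experiments (exact permutation within experiments, p = 0.5). The ratio of *Atp5g1* to *Atp5g2* differed by 0.34 (p = 0.3 and adjusted p = 0.3 by the same free permutation) and was higher with sh4 in 3 of 3 experiments (exact permutation within experiments, p = 0.25). The shown promoter of *Atp5g2* carries the NRF1 letters and that of *Atp5g3* the ERR letters, and whether either bears on these shares was not tested. The 3 genes share similar coding sequence, and how reads that match several of them were assigned is not given in the sources used here.

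**Figure D4:**
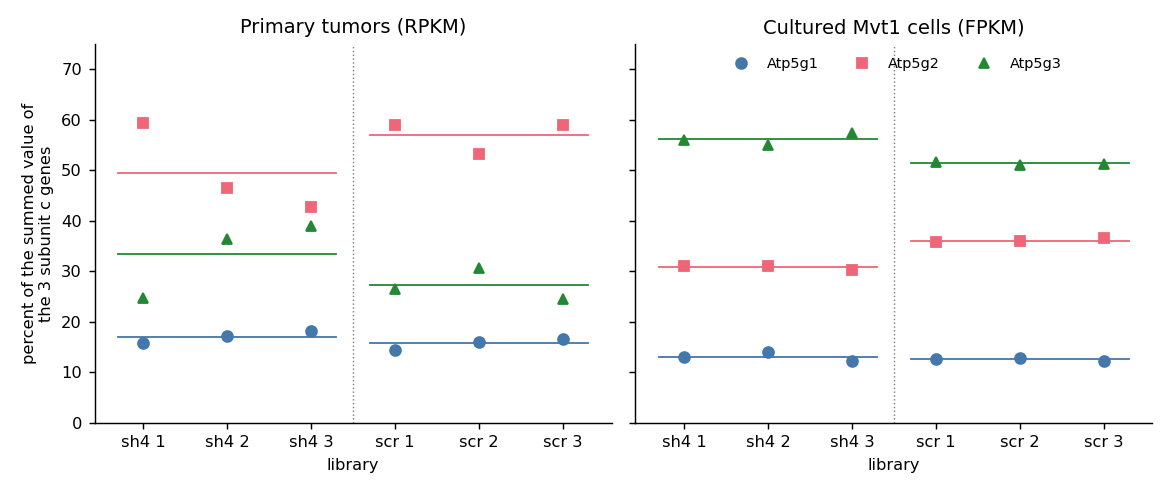
Share of each subunit c gene in the summed value of *Atp5g1*, *Atp5g2* and *Atp5g3* for each tumor (left, from RPKM) and each plate of cells (right, from FPKM), with lines at the group means. In cells *Atp5g3* lies at 55.1% to 57.4% with sh4 and 51.1% to 51.7% with scramble and *Atp5g2* at 30.3% to 31.0% with sh4 and 35.7% to 36.5% with scramble, and in tumors the groups overlap for all 3 genes.

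The alternative forms of complex IV were low or at 0 in cultured cells. *Cox6a2*, *Cox7b2* and *Cox8c* were listed at 0 on every plate, while 12 genes that all cells use, checked for comparison, were above 0 on every plate. *Cox8b* was at 0.281, 0.332 and 0.173 FPKM in sh4 cells and 0.102, 0.020 and 0.041 FPKM in scramble cells (log2 fold change 0.46, SE 0.11, adjusted p = 0.113 from limma). The sh4 plates were all higher, at levels of at most 0.133% of *Cox8a*, and with a pseudocount of 0.1 the log2 fold change was 1.24. In these cells the 8 fat cell markers summed to at most 0.023 FPKM with sh4 and 0.018 FPKM with scramble, with *Lep* and *Ucp1* at 0 throughout. *Cox8a*, the most abundant member in cells, was at 285, 249 and 245 FPKM with sh4 and 225, 278 and 289 FPKM with scramble, and the groups overlapped. *Cox7a1* was at 0.577, 0.589 and 0.431 FPKM with sh4 and 0.373, 0.387 and 0.480 FPKM with scramble.

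Across the 78 members with a fold change in both tables, 24 were higher with sh4 in both and 12 lower in both, 32 were lower in sh4 tumors and higher in sh4 cells, and 10 the reverse. Spearman's rho between the fold changes was 0.0979 across these genes, which share their libraries and are not independent. None of the members separated the groups in opposite directions in tumors and cells. Tumor and cell tables differ in RNA selection, unit and processing, and no test was made between them.

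Other genes of the pathway were read from lists of known parts. Of 8 listed subunits and carriers that the symbol rule passes over, 0 of 8 in tumors and 0 of 7 in cells that passed the minimum were called. *Cycs*, cytochrome c itself, had the smallest p of these in cells, at 30.4, 29.2 and 26.7 FPKM with sh4 and 18.3, 22.9 and 21.7 FPKM with scramble (log2 fold change 0.45, SE 0.097, adjusted p = 0.087 from limma). The sh4 plates were all higher. The 13 subunits encoded in mitochondrial DNA were measured in cells alone, where 0 were called, 10 were positive and 3 negative, and their FPKM summed to 20230, 20530 and 20250 with sh4 and 18880, 19210 and 20430 with scramble, so the sums overlapped.

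Among assembly factors, *Ndufaf4*, which helps to build the peripheral arm of complex I, was the 1 gene called in cells, where 1.28% of all genes were. It rose to 5.66, 5.71 and 5.11 FPKM in sh4 cells, against 3.49, 4.06 and 3.73 FPKM in scramble cells (log2 fold change 0.49, SE 0.075, adjusted p = 0.046 from limma, with a range from 0.015 to 0.25 over the alternatives). Leaving out any 1 plate ended the call, with adjusted p from 0.060 to 0.19. The other 9 measured complex I assembly factors were not called, nor were the 22 of complexes II to V, of which *Cox17*, a copper chaperone for complex IV, was at 4.97, 4.92 and 4.39 FPKM with sh4 and 5.64, 6.13 and 6.08 FPKM with scramble (log2 fold change -0.30, SE 0.069, adjusted p = 0.099 from limma). *Cox18*, which inserts a complex IV subunit into the membrane, had a log2 fold change of 0.33 (SE 0.080). In tumors 0 of 10 and 0 of 20 assembly factors had an unadjusted p under 0.05.

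The tricarboxylic acid cycle supplies electrons to complexes I and II. All 18 of its listed genes had negative fold changes in tumors, where 57.4% of all genes were negative. Their median was -0.17, beside -0.043 over all genes, and 0 had an unadjusted p under 0.05. For 0 of the 18 were all sh4 tumors under all scramble tumors, which held for 4.98% of all genes. Their RPKM summed to 733, 597 and 676 with sh4 and 695, 808 and 744 with scramble, so the sums overlapped, with the extremes in experiment 2. *Idh3b*, a subunit of isocitrate dehydrogenase, was at 51.3, 33.7 and 40.9 RPKM with sh4 and 49.2, 55.1 and 54.2 RPKM with scramble (log2 fold change -0.35, SE 0.19). Here sh4 tumor 1 lay among the scramble tumors. In cells 16 of the 18 were positive (median 0.11), where 49.6% of all genes were, and 3 were higher at an unadjusted p under 0.05, where 9.55% of all genes were. Their FPKM summed to 278, 261 and 252 with sh4 and 225, 256 and 249 with scramble, lowest in scramble plate 1. *Cs*, citrate synthase, was at 34.3, 32.2 and 30.6 FPKM with sh4 and 26.2, 29.3 and 28.7 FPKM with scramble (log2 fold change 0.21, SE 0.068), and *Idh3a* had a log2 fold change of 0.27 (SE 0.075). With the length index as covariate these were 0.0069 for *Cs* and 0.18 for *Idh3a*.

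Of 75 genes of the mitochondrial ribosome, 0 were called in either table, and the medians were 0.023 in tumors and 0.079 in cells. At an unadjusted p under 0.05, 7 of them were higher and 2 lower in cells, where 9.55% and 9.33% of all genes were, and 0 in tumors. Of 15 regulators of mitochondrial biogenesis that passed the minimum, 0 had an unadjusted p under 0.05 in tumors or in cells. *Pprc1*, a coactivator of the PGC-1 family, was at 3.88, 5.21 and 4.82 RPKM in sh4 tumors and 2.98, 3.05 and 4.36 RPKM in scramble tumors (log2 fold change 0.38, SE 0.23). *Ppargc1a*, the best known coactivator of that family, was at most 0.157 RPKM in any tumor and 0.018 FPKM in any plate. *Myc* was abundant in both, at 103 to 234 RPKM in sh4 tumors and 108 to 229 RPKM in scramble tumors, and at 138 to 155 FPKM in sh4 cells and 121 to 135 FPKM in scramble cells. Among the remaining marker lists, 2 of 8 leukocyte markers, *Cd3g* and *Cd8a*, passed an unadjusted p of 0.05 with higher values in sh4 tumors. Over all genes 2.16% did so. Of the 8, 3 were positive and 5 negative with a median of -0.16, and their sums ran from 108 to 170 RPKM in sh4 tumors and from 110 to 144 RPKM in scramble tumors. For the rest, 0 of 6 stromal and vessel markers and 0 of 3 erythrocyte markers passed it.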

How the data were processed

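Tumor values are RPKM (reads scaled to exon length and library size) as deposited by the authors, made from mRNA libraries by trimming (Trimmomatic), alignment to mm9 (TopHat) and quantification of Ensembl genes (Partek). Cell values are FPKM (the same for fragments) from total RNA as deposited by the authors, whose reads the study's methods describe as aligned with TopHat to a GENCODE annotation of long noncoding RNAs. The submitters' processing notes name TopHat2 2.1.0 and also STAR 2.7, and the tool that gave the FPKM values is not given in the sources used here. Rows of assembled loci without an Ensembl gene, 46.2% to 52.6% of summed FPKM, were left out. Exome samples were not analysed here. Neither table keeps read counts, so depth is unknown and no counting interval is given. Columns not used numbered 0.

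Each table was fitted separately with limma 3.58.1 (R 4.3.3) on log2(value + 0.5), with a variance trend, for genes with a mean of at least 0.1, and p-values were adjusted over all genes tested by the Benjamini-Hochberg method. A member was called at an adjusted p under 0.05. Intervals are 95% intervals from the fit. Ratios between genes were compared by exact two-sided permutation of the 6 libraries (20 assignments), and in tumors also within experiments (8 assignments), a test added after seeing the data. No ratio was among the planned tests, and the adjusted p-values do not cover the choice of ratios. The labels number the tumors by experiment, which pairs them (correlations of deviations 0.138, 0.33 and -0.117). In simulated data with known changes and independent noise for each gene, 0.0%, 16.4% and 63.6% of genes with log2 changes of 0.5, 1 and 2 were called in tumors and 53.7%, 85.1% and 95.5% in cells (66 or 67 genes each).

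The members and lists were chosen with earlier results of these data known. Genes named are, for each complex, the 2 of lowest p and the 1 most abundant, all complex II genes, tissue forms with their counterparts, subunit c genes and 2 genes of each other list, and further genes named were chosen after their values were seen. Some genes that the rule names are not reported here, though they are in the counts and medians. Alternatives were other pseudocounts (0.1 and 1), no minimum, a minimum mean of 1, quantile normalization, median-ratio scaling, a replicate block, the length index as covariate, no variance trend, and each library left out. Promoters are from RefSeq (GRCm38.p6), and gene positions and exon overlaps are on NCBIM37 (mm9).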

Additional observations from a re-analysis of the deposited data

Results flagged for a closer look

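*Atp5l-ps1*, named as a pseudogene of the ATP synthase g subunit, annotated as protein-coding and left out of the members, had a mean of 14.84 FPKM in sh4 cells and 13.03 FPKM in scramble cells. It was singled out because it is a signal outside the comparisons made, and it stood above *Atp5l*, which averaged 6.54 FPKM in sh4 cells and 6.23 FPKM in scramble cells. The assignment of reads between the pair was not tested.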

How the results depend on the processing

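In tumors 0 members were called under any alternative. In cells 0 were called at the settings used, 1 (*Cox5a*) with a minimum mean of 1 FPKM, and 3 (*Cox5a*, *Ndufb5* and *Atp5g3*) with quantile normalization and also 3 with median-ratio scaling. The cell member median was -0.18 with the length index as covariate, beside 0.084, and the split became 11 positive to 68 negative. The median over all cell genes tested was -0.063 with it, beside -0.0022. In tumors the same covariate gave a median of -0.14, beside -0.045, and a split of 22 positive to 58 negative, beside 34 to 46. The median over all tumor genes tested was then -0.0028. With the covariate 9 members were lower at an unadjusted p under 0.05 (4.33% of all genes), beside 4 without it (2.02%). The covariate also reversed the sign of 46 of 79 members in cells and 12 of 80 in tumors, and the cause was not tested. In cells these included *Atp5a1* (-0.10), *Atp5b* (-0.045), *Atp5g1* (-0.092), *Ndufa8* (-0.031), *Ndufs4* (-0.012) and *Uqcr10* (-0.13). In tumors they included *Atp5e* (-0.097) and *Atp5g3* (-0.069). Without a change of sign in cells, *Uqcrb* was at 0.0038, *Cs* at 0.0069, *Cycs* at 0.13 and *Cox18* at 0.14, while *Cox5a* was at 0.29 and *Ndufs6* at 0.35. Leaving out 1 library moved the tumor median between -0.13 and 0.06 and the cell median between 0.011 and 0.13. Over these, the log2 fold change in tumors ran from -0.13 to 0.94 for *Atp5e* and from -0.078 to 0.24 for *Atp5g3*. Over all cell genes, 270 were called, 1223 with quantile normalization, 961 with median-ratio scaling, 1 with the length index, 0 with plate number as a replicate block, and 2 to 242 with 1 library left out. Plate numbers did not pair the plates (correlations -0.061, -0.076 and -0.073), and the replicate block changed no member call (0 called in tumors and in cells) but ended that of *Ndufaf4* (adjusted p = 0.25 from limma). Without the low-value minimum, without the variance trend and with the length index, *Ndufaf4* had adjusted p of 0.070, 0.060 and 0.22. Both tables hold 3 libraries a group and no counts, and differences of 2-fold or less in a single tumor gene would mostly have been missed.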
